A study of Arabidopsis thaliana with 30 samples.

Results

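The xyloglucan endotransglucosylase/hydrolase (XTH) genes of Arabidopsis thaliana form a family of 33, XTH1 to XTH33, of which XTH22 is called TCH4. They were taken by locus code from a deposited table of 32548 genes as all genes of the family; the family itself was chosen for description with earlier results of these data known. The table holds messenger RNA sequencing values of whole 12-day-old seedlings in 10 genotypes with 3 libraries each. Mutants of 7 genes were sequenced, each labelled homozygous: gcn5 and ada2b, and ada2a, spc, ing1, sdrl or eaf6. There were 2 double mutants, ada2aspc and spcing1, and the wild type was Col-0. All were grown on MS plates at a 16 h light and 8 h dark cycle with no treatment. The alleles, the number of lines behind a mutant, the hour of harvest and the handling at harvest are not stated in these sources. Nothing says that libraries of a genotype came from separately grown seedlings, so each p-value reflects only how these libraries differ, which may be technical.

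Xyloglucan is a glucan chain with xylose side chains that coats and tethers cellulose in the primary cell wall. XTH enzymes cut a xyloglucan chain and join its new end to another chain, and some members instead hydrolyse the chain. They act where walls expand or are rebuilt, and TCH4 is a classic gene induced by touch. GCN5 is a histone acetyltransferase, and transcription-linked acetylation of histone H3 is its best-known activity. ADA2B is its partner in the conserved SAGA complex. ADA2A, SPC, ING1, SDRL and EAF6 are known as subunits of a plant-specific complex called PAGA, which also contains GCN5. The comparisons ask how loss of a subunit of either complex alters transcript levels, and the 7 mutants ada2a, spc, ing1, sdrl, eaf6, ada2aspc and spcing1 are called the PAGA-subunit mutants here.

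Values are the submitters' normalised signal, and columns summed to between 30914000 and 41548748. Of the mutated genes followed here, GCN5 fell by 1.03 on the log2 scale in gcn5, and ADA2B fell by 0.47 in ada2b. The log2 difference of ADA2A was -5.30 in ada2a and -6.38 in ada2aspc, that of ING1 was -2.15 in ing1 and -2.30 in spcing1, and that of EAF6 was -2.81 in eaf6. Transcripts of SPC and SDRL were not analysed here. Markers of green tissue and of root were present in every genotype, as whole seedlings should give. In bulk seedlings, fewer cells of a type and less RNA per cell cannot be told apart. Library 2 of ada2aspc stood apart from the other 2 in several XTH genes (TCH4 at 28402 against 14470 and 10119, XTH33 at 779 against 341 and 311). Other libraries stood apart in some genes too, as library 3 of ada2a in XTH13, XTH14, XTH18 and XTH24. Library 1 of Col-0 did so in XTH13 and XTH14. Some of the results that use library 2 of ada2aspc are also given without it.

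Of the 33 genes, 30 reached 10 in 3 or more libraries and were tested, among 21868 genes in all. XTH1, XTH2 and XTH3 were not tested. XTH1 was listed at 0 in every library, and XTH2 and XTH3 reached at most 4.05 and 3.96. Each comparison used limma on log2(value + 1), which understates the change of low genes, with Benjamini-Hochberg adjustment over all genes tested and a threshold of 0.05. The 9 mutants share the same 3 Col-0 libraries, so their differences from Col-0 are not independent of each other. At least 1 mutant passed the test for 29 of the 30 tested genes. The exception was XTH10, which lay between 17.9 and 85.2 in all libraries. How many of all genes passed in at least 1 mutant was not counted. In a single mutant, 29.7% (ada2a) to 51.6% (ada2b) of them passed, so 29 of 30 is not shown to be a trait of the family.

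In ada2a, 16 of 30 tested XTH genes rose and 2 fell, while 15.1% of all genes tested rose and 14.5% fell. In spc, 17 rose and 3 fell (all genes 20.3% and 19.7%). In ing1, 17 rose and 2 fell (all genes 17.5% and 18.2%). More XTH genes rose in each of these single mutants than fell, whereas rises and falls were near balance over all genes. In sdrl, 18 rose and 3 fell (all genes 17% and 18.9%), and in eaf6, 21 rose and 3 fell (all genes 25.2% and 25.9%). The double mutants had 18 up and 3 down in ada2aspc (all genes 21.7% and 22.8%) and 17 up and 4 down in spcing1 (all genes 20.9% and 23.9%). Without library 2 of ada2aspc, 17 rose and 2 fell in that mutant. The mutants gcn5 and ada2b had no such tilt in this fit. In gcn5, 9 rose and 10 fell (all genes 18.2% and 24.5%), and in ada2b, 12 rose and 11 fell (all genes 23.5% and 28.1%). After division by column totals, 12 rose and 7 fell in gcn5, so the balance there depended on the scaling. The shares of all genes by that scaling were not counted. The median log2 difference of the 30 genes was 0.12 in gcn5, -0.23 in ada2b, 0.27 in ada2a, 0.40 in spc, 0.65 in ing1, 0.72 in sdrl, 0.79 in eaf6, 0.78 in ada2aspc and 0.67 in spcing1. Over all genes tested, the median lay between -0.05 in sdrl and 0.01 in ada2b.

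**Figure D1:**
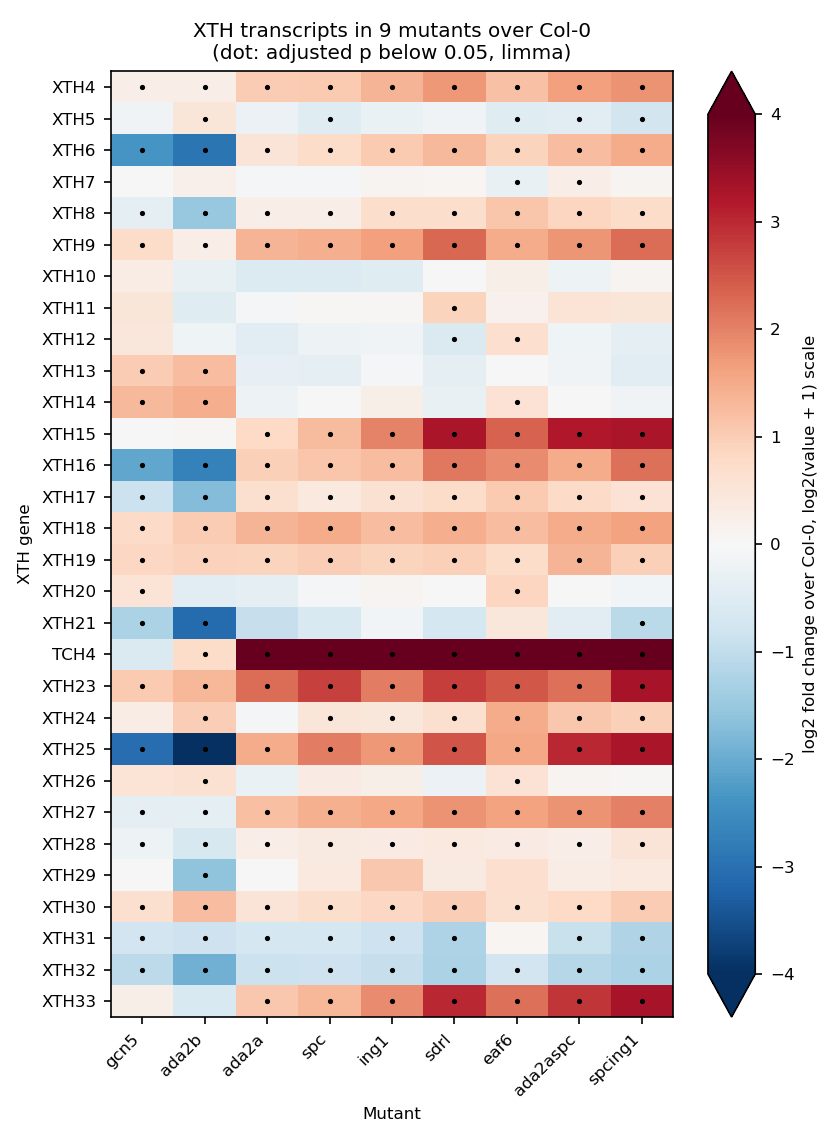
Log2 fold change of the 30 tested XTH genes (rows) in 9 mutants over Col-0 (columns), on the log2(value + 1) scale, with the colour limited to 4 in either direction; a black dot marks adjusted p below 0.05. TCH4 is the darkest row in the 7 PAGA-subunit mutants, XTH25, XTH6 and XTH16 are blue in gcn5 and ada2b and red in the others, and XTH32 is blue in all 9.

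Summed over the family per kilobase of transcript, the XTH signal was higher in every library of the PAGA-subunit mutants than in any Col-0 library. Each value was divided by the length of the gene's longest annotated transcript. The sources do not state whether the values were already scaled by length. The sum and the order of members by level assume that they were not. The sum averaged 62631 ± 5786 in ada2a, 68819 ± 1201 in spc, 70612 ± 3208 in ing1, 93336 ± 1599 in sdrl, 68363 ± 2209 in eaf6, 75968 ± 11087 in ada2aspc and 99664 ± 8655 in spcing1, against 31685 ± 3701 in Col-0 (SD, n = 3 each). The ratios to Col-0 ran from 1.98 in ada2a to 3.15 in spcing1. That of ada2aspc was 2.40, or 2.20 without its library 2. For each of these 7 mutants the exact two-sided permutation test gave p = 0.1, the smallest that 3 against 3 libraries allow. The sum in gcn5 (33404 to 38013) and in ada2b (35408 to 40261) overlapped that of Col-0 (29094 to 35924), with an exact p of 0.2 for each. TCH4 made up 25.1 to 29.4% of the sum in ada2a and 24.4 to 30% in spcing1, against 0.956 to 1.36% in Col-0. Without TCH4 the ratio to Col-0 was 1.45 in ada2a, 1.56 in spc, 1.77 in ing1, 2.17 in sdrl, 1.85 in eaf6, 2.07 in ada2aspc and 2.30 in spcing1. The rise of the summed signal thus was not made by TCH4 alone.

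**Figure D2:**
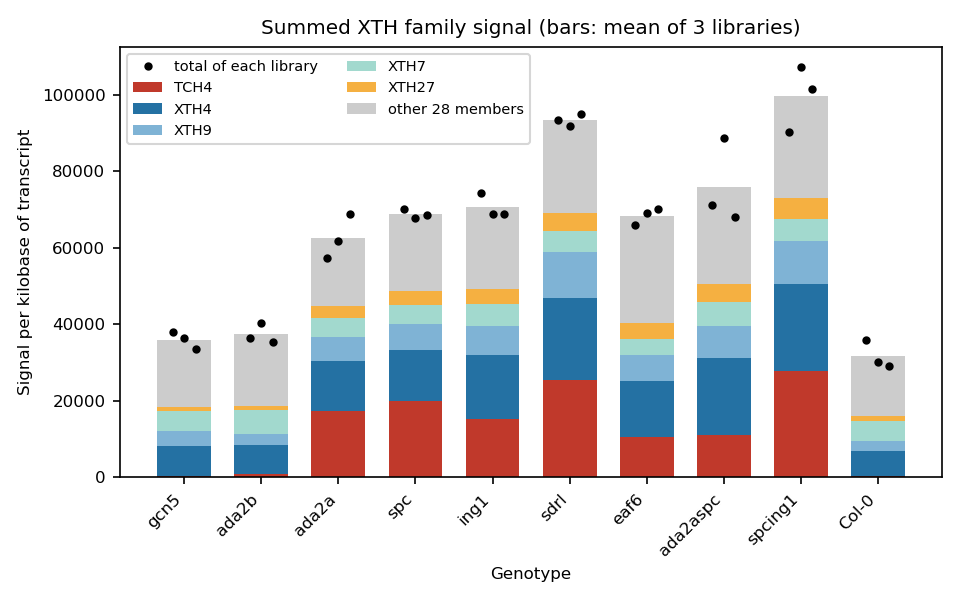
Summed XTH signal per kilobase of transcript by genotype; stacked bars are means of 3 libraries for TCH4, XTH4, XTH9, XTH7, XTH27 and the other 28 members, and black points are the total of each library. The red TCH4 segment is barely visible in gcn5, ada2b and Col-0 and reaches 27759 in spcing1, and all 21 totals of the PAGA-subunit mutants lie above the 3 of Col-0.

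The order of the members by level per kilobase changed with genotype. In Col-0 the leading members were XTH4 at 6509, XTH7 at 5264, XTH9 at 2450 and XTH31 at 2380 signal per kilobase (means of 3 libraries), and TCH4 stood at 373. In spcing1 the leading members were TCH4 at 27759, XTH4 at 22629, XTH9 at 11463 and XTH7 at 5710. In ada2b they were XTH4 at 7744, XTH7 at 6143, XTH14 at 5984 and XTH24 at 3730. XTH7, which encodes an enzyme of the large clade I/II, was thus among the most abundant members in these 3 genotypes, and its level changed little: it passed the test as lower in eaf6 (-0.31 ± 0.11, SE) and higher in ada2aspc (0.26 ± 0.11, SE) and in no other mutant against Col-0.

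TCH4 (AT5G57560, chr5:23307006-23308680, minus strand; coordinates throughout are those of TAIR10.1) had the largest rise of the family in each PAGA-subunit mutant. Its libraries 1, 2 and 3 gave 428, 461 and 312 in gcn5 and 712, 749 and 1740 in ada2b. They gave 22891, 27980 and 32122 in ada2a, 31933, 29135 and 33616 in spc, 28031, 22650 and 21747 in ing1, 43575, 39307 and 37685 in sdrl and 16560, 15199 and 17794 in eaf6. The double mutants gave 14470, 28402 and 10119 in ada2aspc and 35051, 48856 and 48506 in spcing1, and Col-0 gave 546, 601 and 631. Every library of the 7 PAGA-subunit mutants was far above every other library, and no library lay between 1740 and 10119. The log2 rise over Col-0 ran from 4.76 ± 0.26 (SE, adjusted p = 4.92e-15) in ada2aspc to 6.20 ± 0.26 (SE, adjusted p = 9.93e-18) in spcing1 by limma. In ada2b the rise of 0.72 ± 0.26 (SE, adjusted p = 0.0203) rested on single libraries: without library 3 of ada2b it was 0.30 (limma adjusted p = 0.288), and it did not pass without library 1 of Col-0 (0.0636) or in the compared groups alone (0.0666). In gcn5 all 3 libraries were below Col-0, and the difference of -0.58 ± 0.26 (SE, adjusted p = 0.0695) did not pass the test with limma.

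The 3 other classic touch genes, TCH1, TCH2 and TCH3, encode calcium-binding proteins of the calmodulin group. They rose in all 7 PAGA-subunit mutants, with 3 of 3 passing in each, where 15.1% (ada2a) to 25.2% (eaf6) of all genes rose. In gcn5 and in ada2b 2 of the 3 rose (all genes 18.2% and 23.5%). The summed value of the 3 genes was 8841 to 14786 in the PAGA-subunit mutants. It was 1836 to 2287 in gcn5 and 2630 to 4580 in ada2b, against 1144 to 1258 in Col-0. TCH3 rose by 4.20 (eaf6) to 4.64 (spcing1) on the log2 scale in the PAGA-subunit mutants, and by 1.23 in gcn5 and 1.68 in ada2b. TCH3 and TCH2 thus passed as higher also in gcn5, where TCH4 did not. The handling of the plates at harvest is not given in the labels, and its part in these levels was not tested.

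The 300 bases before the annotated transcript starts of TCH4 and of 3 other members with large rises in the PAGA-subunit mutants are shown because their levels moved in different ways in gcn5 and ada2b. All are read 5′ to 3′ on the gene's strand from RefSeq's TAIR10.1. Capitals mark matches, on either strand, to 6 motifs that were searched: CGCGTT (a rapid stress response element), CACGTG (the G-box), TTGACC (a W-box form), CATGTG, AAATATCT (the evening element) and TGTCTC (an auxin response element). The windows are chr5:23308681-23308980 (minus strand) for TCH4, chr4:13128094-13128393 (plus strand) for XTH23, chr5:23306441-23306740 (minus strand) for XTH25 and chr1:3481042-3481341 (minus strand) for XTH33.
TCH4: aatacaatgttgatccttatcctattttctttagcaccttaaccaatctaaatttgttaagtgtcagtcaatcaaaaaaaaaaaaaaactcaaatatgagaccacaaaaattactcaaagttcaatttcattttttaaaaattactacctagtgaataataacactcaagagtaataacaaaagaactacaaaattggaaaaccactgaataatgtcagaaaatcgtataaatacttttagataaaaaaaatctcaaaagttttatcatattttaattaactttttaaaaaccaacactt
XTH23: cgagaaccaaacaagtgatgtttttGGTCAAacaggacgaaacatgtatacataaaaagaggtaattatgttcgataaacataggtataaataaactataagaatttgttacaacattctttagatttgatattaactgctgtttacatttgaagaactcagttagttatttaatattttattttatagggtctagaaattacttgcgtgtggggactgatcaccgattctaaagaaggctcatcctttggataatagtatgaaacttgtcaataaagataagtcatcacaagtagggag
XTH25: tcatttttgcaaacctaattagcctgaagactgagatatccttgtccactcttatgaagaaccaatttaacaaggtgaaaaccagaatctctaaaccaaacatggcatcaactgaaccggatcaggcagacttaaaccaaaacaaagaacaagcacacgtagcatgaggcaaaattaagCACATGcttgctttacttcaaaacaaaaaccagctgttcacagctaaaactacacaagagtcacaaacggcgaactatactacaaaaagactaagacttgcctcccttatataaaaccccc
XTH33: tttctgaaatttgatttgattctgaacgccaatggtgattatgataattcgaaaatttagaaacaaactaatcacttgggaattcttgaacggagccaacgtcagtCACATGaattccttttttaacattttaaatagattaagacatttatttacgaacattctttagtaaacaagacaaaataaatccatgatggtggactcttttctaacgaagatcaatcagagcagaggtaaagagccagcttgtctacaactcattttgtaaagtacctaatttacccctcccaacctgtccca
The TCH4 window held none of these letters. That of XTH23 held TTGACC on the opposite strand 275 to 270 bases before the start. XTH25 and XTH33 held CATGTG on the opposite strand, at 121 to 116 and 194 to 189 bases before the start. Over 27443 promoters of the same length, CATGTG occurred in 13.1% and in 5 of the 33 XTH windows, TTGACC in 14% and in 6 XTH windows, AAATATCT in 5.64% and in 4, and TGTCTC in 13% and in 3. CGCGTT occurred in 3.08% of all promoters and in the windows of XTH13, XTH18 and XTH20, and CACGTG in 7.09% and in none of the 33. Matches to such letters describe the windows and do not show binding.

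TCH4 lies in a run of 4 XTH genes on chromosome 5, all on the minus strand: XTH12, XTH13, XTH25 and TCH4 follow each other with gaps of 1097, 686 and 565 bases. TCH4 and XTH25 both rose at least 2-fold in the 7 PAGA-subunit mutants, but the 4 neighbours did not all move together. XTH25 (AT5G57550, chr5:23304782-23306440, minus strand) had libraries at 7.5, 7.92 and 3.03 in gcn5 and 3.36, 1.42 and 0 in ada2b. It had 181, 193 and 108 in ada2a, 174, 289 and 242 in spc, 184, 181 and 194 in ing1, 383, 242 and 349 in sdrl, 263, 81.5 and 202 in eaf6, 355, 702 and 358 in ada2aspc and 440, 699 and 506 in spcing1, against 47.7, 64.2 and 53.7 in Col-0. XTH25 was thus at or near 0 in gcn5 and ada2b and above every Col-0 library in the PAGA-subunit mutants, with no overlap. Its log2 difference was -3.05 ± 0.41 (SE, adjusted p = 6.02e-07) in gcn5 and -4.67 ± 0.41 (SE, adjusted p = 8.27e-11) in ada2b, and it rose by 1.49 (ada2a) to 3.27 (spcing1) in the PAGA-subunit mutants by limma. XTH13, 686 bases to one side, rose in both gcn5 and ada2b. XTH12 passed only as higher in eaf6 (0.67 ± 0.22, SE) and lower in sdrl (-0.57 ± 0.22, SE), with libraries that overlapped Col-0 in both.

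XTH6, XTH8, XTH16, XTH17, XTH27 and XTH28 moved as XTH25 did: higher than Col-0 in the PAGA-subunit mutants and lower in gcn5 and ada2b. XTH16 (AT3G23730, chr3:8550037-8551403, plus strand), a clade I/II gene, had 142, 152 and 148 in gcn5 and 85.2, 99.3 and 95.7 in ada2b. It had 1097, 1220 and 1304 in ada2a, 1406, 1321 and 1280 in spc, 1708, 1426 and 1289 in ing1, 2839, 2575 and 2657 in sdrl, 2343, 2212 and 2282 in eaf6, 1756, 2174 and 1390 in ada2aspc and 2369, 3036 and 3203 in spcing1, against 756, 574 and 546 in Col-0. No XTH16 library of any mutant overlapped Col-0, and ada2b was lowest and spcing1 highest. XTH16 changed by -2.72 ± 0.13 (SE, adjusted p = 7.94e-17) in ada2b and by 2.20 ± 0.13 (SE, adjusted p = 2.13e-14) in spcing1 by limma.

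XTH6 (AT5G65730, chr5:26298728-26300529, plus strand) had 314, 249 and 249 in gcn5 and 129, 137 and 326 in ada2b. It had 1833, 2149 and 1908 in ada2a, 2271, 2280 and 2283 in spc, 2935, 2484 and 3119 in ing1, 3307, 3318 and 3481 in sdrl, 2440, 2614 and 2567 in eaf6, 3411, 3392 and 2986 in ada2aspc and 3303, 4399 and 3829 in spcing1, against 1582, 1328 and 1231 in Col-0. Its loss in gcn5 (-2.35 ± 0.19, SE) and ada2b (-2.93 ± 0.19, SE) was larger than its rise in any mutant, of which the largest was 1.47 in spcing1. The rise in ada2a (0.51 ± 0.19 (SE, adjusted p = 0.0398)) was lost to an adjusted p of 0.0641 with limma on all genes without the filter, after division by column totals (adjusted p = 0.067), and in 5 of 6 refits that left out a library.

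XTH8 (AT1G11545, chr1:3878495-3880391, minus strand) had 1291, 1093 and 1221 in gcn5 and 574, 554 and 497 in ada2b. It had 1760, 1788 and 2084 in ada2a, 1985, 1924 and 1707 in spc, 2462, 2633 and 2484 in ing1, 2330, 2544 and 2818 in sdrl, 3021, 3578 and 3390 in eaf6, 2895, 2685 and 2858 in ada2aspc and 2636, 2608 and 2578 in spcing1, against 1758, 1559 and 1369 in Col-0. It was lowest in ada2b (-1.52 ± 0.09 (SE, adjusted p = 9.58e-15)) and highest in eaf6 (1.1 ± 0.09 (SE, adjusted p = 3.15e-11)) by limma. Its rises in ada2a and spc, both 0.27, and its fall in gcn5 (-0.37) did not pass after division by column totals.

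XTH27 (AT2G01850, chr2:385171-387478, plus strand), whose product is known from leaf veins and the formation of tracheary elements, had 1548, 1669 and 1747 in gcn5 and 1666, 1561 and 1791 in ada2b. It had 4765, 5052 and 4794 in ada2a, 5557, 5881 and 5756 in spc, 6750, 5977 and 5985 in ing1, 7801, 7216 and 7447 in sdrl, 6745, 5996 and 6756 in eaf6, 6873, 8552 and 6970 in ada2aspc and 7375, 9334 and 9035 in spcing1, against 2348, 2108 and 1956 in Col-0. XTH27 rose by 1.19 ± 0.09 (SE, adjusted p = 3.37e-12) in ada2a to 2.0 ± 0.09 (SE, adjusted p = 2.57e-17) in spcing1 by limma. The falls in gcn5 (-0.37) and ada2b (-0.35) were small and did not pass after division by column totals. Its closest relative XTH28, known from the growth of stamen filaments, had the same directions with smaller differences, between -0.64 in ada2b and 0.53 in spcing1.

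**Figure D3:**
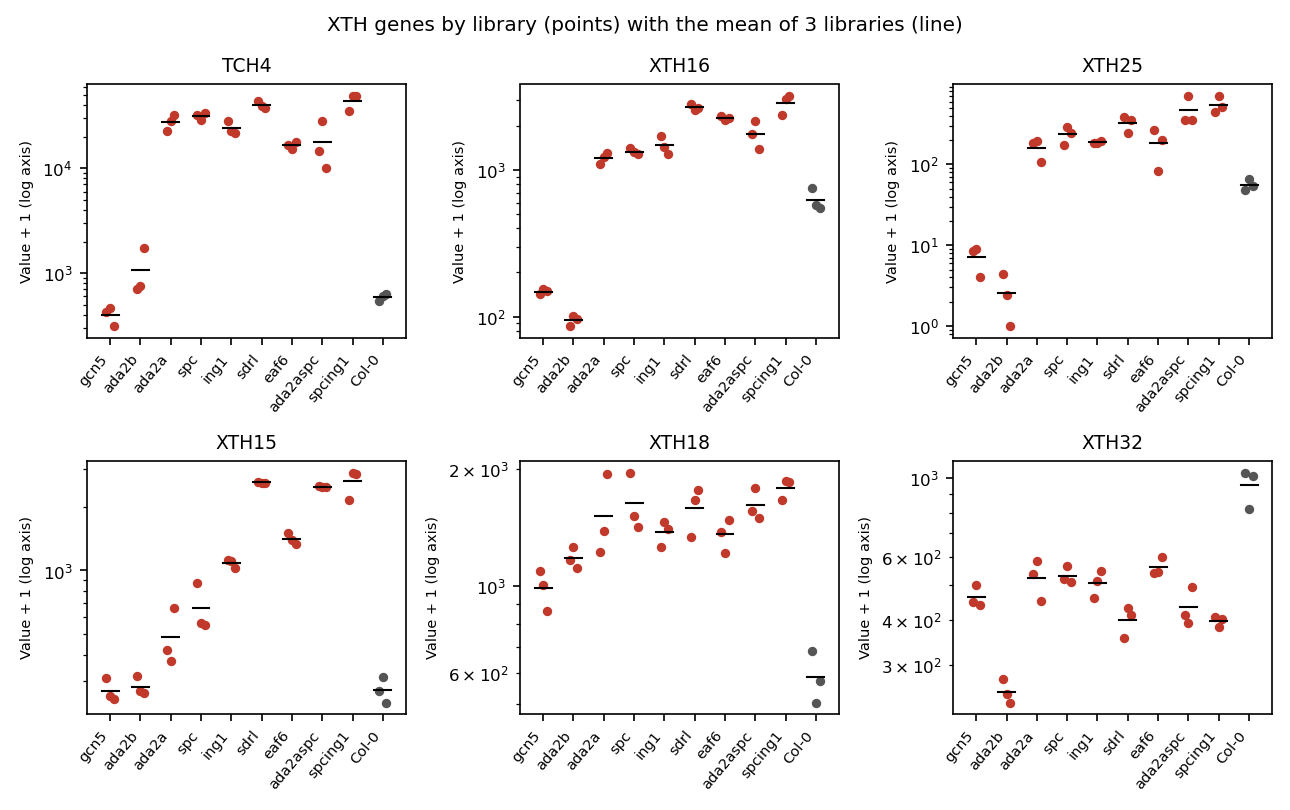
Values of 6 XTH genes in each library (points; red mutants, grey Col-0) with the mean of 3 libraries (lines), as value + 1 on log axes. TCH4, XTH15, XTH16 and XTH25 are above Col-0 in the 7 PAGA-subunit mutants, XTH16 and XTH25 are below it in gcn5 and ada2b, XTH18 is above it in all 9 mutants and XTH32 is below it in all 9.

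The genes XTH17, XTH18, XTH19 and XTH20 are close relatives that are best known from roots, where XTH18 supports primary root elongation. Their coding sequences around the catalytic site are shown because XTH17 and XTH18, which share 92.2% of their aligned coding bases, moved in opposite directions in gcn5 and ada2b. Capitals mark the 10 of 63 bases at which the 4 genes differ, and the stretches lie at chr1:24257664-24257726, plus strand (XTH17), chr4:14826551-14826613, minus strand (XTH18), chr4:14829543-14829605, minus strand (XTH19) and chr5:19482547-19482609, plus strand (XTH20) in TAIR10.1.
XTH17: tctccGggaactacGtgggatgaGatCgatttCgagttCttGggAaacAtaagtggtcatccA
XTH18: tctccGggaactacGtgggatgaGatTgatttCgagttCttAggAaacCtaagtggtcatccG
XTH19: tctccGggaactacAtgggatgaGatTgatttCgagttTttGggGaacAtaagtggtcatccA
XTH20: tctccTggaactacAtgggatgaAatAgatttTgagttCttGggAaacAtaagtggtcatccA
The longest run of identical coding bases is 47 between XTH17 and XTH18 and 68 between XTH18 and XTH19, shorter than a read of 150 bases. How reads that match more than 1 gene were counted is not given in the sources used here, so a share of each gene's signal may belong to a relative.

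XTH17 (AT1G65310, chr1:24257054-24258506, plus strand) had 511, 466 and 416 in gcn5 and 296, 259 and 211 in ada2b. It had 1229, 1193 and 1547 in ada2a, 1295, 1041 and 998 in spc, 1180, 1340 and 1279 in ing1, 1266, 1389 and 1494 in sdrl, 1552, 1902 and 1785 in eaf6, 1630, 1248 and 1424 in ada2aspc and 1332, 1310 and 1135 in spcing1, against 1104, 727 and 732 in Col-0. XTH17 was below every Col-0 library in gcn5 and ada2b (-0.85 and -1.72 on the log2 scale) and passed as higher in the 7 others, although spc overlapped Col-0 and did not pass after division by column totals. XTH18 (AT4G30280, chr4:14825757-14827211, minus strand) had 1095, 1009 and 863 in gcn5 and 1166, 1261 and 1114 in ada2b. It had 1225, 1387 and 1937 in ada2a, 1958, 1516 and 1419 in spc, 1264, 1462 and 1404 in ing1, 1337, 1662 and 1763 in sdrl, 1381, 1219 and 1476 in eaf6, 1561, 1784 and 1500 in ada2aspc and 1665, 1857 and 1851 in spcing1, against 682, 503 and 572 in Col-0. All 27 mutant libraries of XTH18 were above all 3 Col-0 libraries, with log2 rises between 0.76 ± 0.14 (SE, adjusted p = 4.94e-05) in gcn5 and 1.62 ± 0.14 (SE, adjusted p = 6.34e-11) in spcing1 by limma.

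XTH19 (AT4G30290, chr4:14828712-14830224, minus strand), 1500 bases from XTH18 on chromosome 4, had 1818, 1669 and 1358 in gcn5 and 1771, 1802 and 1504 in ada2b. It had 1403, 1551 and 2076 in ada2a, 2209, 1719 and 1522 in spc, 1439, 1778 and 1781 in ing1, 1507, 1872 and 1831 in sdrl, 1401, 1443 and 1609 in eaf6, 2480, 2330 and 2109 in ada2aspc and 1990, 1920 and 1401 in spcing1, against 959, 826 and 913 in Col-0. It too was above Col-0 in every mutant library, by 0.72 (eaf6) to 1.36 (ada2aspc) on the log2 scale. XTH20 lay between 107 and 354 over all libraries, and passed as higher in gcn5 (0.54 ± 0.21, SE) and eaf6 (0.86 ± 0.21, SE).

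XTH4, XTH9, XTH23 and XTH30 were, like XTH18 and XTH19, higher than Col-0 in gcn5 and ada2b as well as in the PAGA-subunit mutants. XTH4 and XTH9 are known from expanding tissue and from secondary growth of the stem, and XTH9 from the shoot apex. XTH4 (AT2G06850, chr2:2763449-2765743, plus strand) had 12363, 12216 and 11560 in gcn5 and 12039, 12747 and 11176 in ada2b. It had 19639, 19464 and 21346 in ada2a, 20805, 21530 and 19983 in spc, 25377, 25435 and 26453 in ing1, 31870, 32822 and 34938 in sdrl, 20724, 23786 and 23372 in eaf6, 30311, 32972 and 29614 in ada2aspc and 32321, 38608 and 34160 in spcing1, against 11756, 9894 and 8580 in Col-0. The rise was large in sdrl (1.73 ± 0.09 (SE, adjusted p = 6.13e-16)) and spcing1 (1.81 ± 0.09 (SE, adjusted p = 2.01e-16)) by limma. In gcn5 and ada2b (0.27 and 0.26) the libraries overlapped Col-0, and without library 3 of Col-0 neither rise passed with limma (adjusted p = 0.153 and 0.157).

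XTH9 (AT4G03210, chr4:1415617-1417444, plus strand) had 6348, 5786 and 6295 in gcn5 and 4544, 4027 and 4897 in ada2b. It had 9376, 9816 and 9137 in ada2a, 9842, 9901 and 10719 in spc, 13575, 10942 and 10825 in ing1, 19044, 17514 and 18534 in sdrl, 10106, 11055 and 10073 in eaf6, 11017, 15285 and 11853 in ada2aspc and 16201, 17643 and 18493 in spcing1, against 3917, 3941 and 3328 in Col-0. All mutant libraries were above Col-0, and sdrl (2.30 ± 0.10 (SE, adjusted p = 1.69e-17)) was the highest single mutant by limma. The small rise in ada2b (0.27) did not pass without library 1 or library 3 of ada2b or without library 3 of Col-0.

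XTH23 (AT4G25810, chr4:13128394-13129927, plus strand) is the closest relative of TCH4, with 80.9% identical coding bases. It had 338, 310 and 257 in gcn5 and 377, 397 and 328 in ada2b. It had 679, 694 and 698 in ada2a, 1012, 929 and 978 in spc, 661, 544 and 597 in ing1, 1065, 957 and 952 in sdrl, 746, 895 and 834 in eaf6, 587, 1159 and 457 in ada2aspc and 1211, 1489 and 1682 in spcing1, against 173, 134 and 134 in Col-0. Unlike TCH4, XTH23 was above Col-0 in every library of gcn5 (1.04 ± 0.19 (SE, adjusted p = 5.31e-05)) and of ada2b (1.32 ± 0.19 (SE, adjusted p = 8.9e-07)) by limma. Among the PAGA-subunit mutants it rose by 2.03 (ing1) to 3.30 (spcing1), less than TCH4 in each.

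XTH30 (AT1G32170, chr1:11575320-11578030, plus strand) had 1029, 998 and 846 in gcn5 and 1306, 1564 and 1481 in ada2b. It had 882, 817 and 914 in ada2a, 946, 1039 and 1034 in spc, 1079, 1143 and 1046 in ing1, 1153, 1176 and 1326 in sdrl, 997, 857 and 1042 in eaf6, 912, 1130 and 1171 in ada2aspc and 1155, 1250 and 1346 in spcing1, against 642, 618 and 576 in Col-0. XTH30, of clade III-B, was the described gene that rose more in ada2b (1.24 ± 0.10 (SE, adjusted p = 6.33e-12)) than in any other mutant by limma, besides the root genes below. XTH24 (MERI5; AT4G30270, chr4:14819192-14820595, minus strand), first found in meristem-rich tissue, had 3021, 3083 and 2287 in gcn5 and 4190, 4432 and 4918 in ada2b. It had 1857, 1792 and 3162 in ada2a, 3036, 3160 and 3312 in spc, 3586, 2867 and 2986 in ing1, 2972, 3795 and 4033 in sdrl, 6162, 6550 and 6198 in eaf6, 4194, 5574 and 4800 in ada2aspc and 4394, 5374 and 3663 in spcing1, against 2801, 1851 and 2263 in Col-0. XTH24 was highest in eaf6 (1.47 ± 0.17 (SE, adjusted p = 2.19e-08)) by limma and did not pass in gcn5 (0.29) or ada2a (-0.05). Its rises in spc and ing1 (0.48 and 0.46) did not pass after division by column totals or without library 2 or 3 of Col-0.

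The clade III-A genes went the other way. XTH31 and XTH32 are the Arabidopsis members of the clade that holds xyloglucan hydrolases, and XTH31 has been studied in roots exposed to aluminium. XTH32 (AT2G36870, chr2:15472607-15474828, minus strand) had 447, 500 and 439 in gcn5 and 272, 247 and 234 in ada2b. It had 536, 584 and 451 in ada2a, 519, 567 and 509 in spc, 461, 514 and 548 in ing1, 355, 431 and 412 in sdrl, 540, 545 and 599 in eaf6, 414, 391 and 495 in ada2aspc and 408, 382 and 402 in spcing1, against 1035, 820 and 1015 in Col-0. All 27 mutant libraries were below all 3 Col-0 libraries, with log2 differences between -1.92 ± 0.11 (SE, adjusted p = 1.1e-14) in ada2b and -0.76 ± 0.11 (SE, adjusted p = 2.1e-06) in eaf6 by limma.

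XTH31 (AT3G44990, chr3:16446935-16448844, minus strand) had 2046, 2052 and 1750 in gcn5 and 1965, 2226 and 1512 in ada2b. It had 1901, 2065 and 2146 in ada2a, 2162, 1947 and 1970 in spc, 1426, 2227 and 2037 in ing1, 1158, 1513 and 1562 in sdrl, 3353, 3489 and 3547 in eaf6, 1673, 1872 and 1815 in ada2aspc and 1736, 1171 and 1459 in spcing1, against 3299, 3071 and 3576 in Col-0. XTH31 fell in the 8 mutants other than eaf6, with log2 differences from -0.70 (ada2a) to -1.24 (sdrl). In eaf6 its libraries lay within the range of Col-0, and the difference of 0.07 ± 0.14 (SE, adjusted p = 0.724) did not pass with limma.

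XTH12, XTH13, XTH14 and XTH26 are known from roots, and XTH14 and XTH26 from root hair zones. The same stretch at the catalytic site is shown for the first 3, since 2 of them rose in gcn5 and ada2b and the other did not pass there. Capitals mark the 16 of 63 bases at which they differ, at chr5:23301127-23301189, minus strand (XTH12), chr5:23303627-23303689, minus strand (XTH13) and chr4:13130762-13130824, plus strand (XTH14).
XTH12: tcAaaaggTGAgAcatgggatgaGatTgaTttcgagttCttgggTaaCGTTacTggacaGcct
XTH13: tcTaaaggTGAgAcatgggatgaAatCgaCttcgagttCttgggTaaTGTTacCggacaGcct
XTH14: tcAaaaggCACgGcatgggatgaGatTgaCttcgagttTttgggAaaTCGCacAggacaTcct
XTH14 (AT4G25820, chr4:13130291-13131860, plus strand) had 6643, 6352 and 5635 in gcn5 and 6567, 8156 and 6226 in ada2b. It had 1781, 1819 and 3141 in ada2a, 2509, 2625 and 2312 in spc, 2931, 2922 and 2972 in ing1, 1697, 2074 and 2411 in sdrl, 3370, 3925 and 3983 in eaf6, 2424, 2668 and 2367 in ada2aspc and 2562, 1992 and 2272 in spcing1, against 3274, 2273 and 2128 in Col-0. It rose in gcn5 (1.30 ± 0.16 (SE, adjusted p = 1.15e-07)), ada2b (1.47 ± 0.16 (SE, adjusted p = 6.18e-09)) and, by less, eaf6 (0.58 ± 0.16 (SE, adjusted p = 0.0034)) by limma, and these libraries did not overlap Col-0.

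XTH13 (AT5G57540, chr5:23302787-23304095, minus strand) had 525, 574 and 567 in gcn5 and 584, 774 and 602 in ada2b. It had 161, 177 and 363 in ada2a, 285, 191 and 180 in spc, 223, 294 and 266 in ing1, 166, 221 and 244 in sdrl, 255, 337 and 244 in eaf6, 235, 308 and 207 in ada2aspc and 230, 140 and 241 in spcing1, against 412, 257 and 191 in Col-0. It passed in gcn5 (1.02 ± 0.26, SE) and ada2b (1.25 ± 0.26, SE) and in no PAGA-subunit mutant. XTH26 lay between 206 and 681 over all libraries and passed as higher in ada2b (0.59) and eaf6 (0.57), with overlap with Col-0 in both. XTH21, which supports root growth, fell in ada2b (-3.07 ± 0.38, SE), gcn5 (-1.27 ± 0.38, SE) and spcing1 (-1.06 ± 0.38, SE), so the root genes of the family did not share a direction. Its libraries were at 38.2, 44.3 and 39.4 in gcn5, 3.15, 14.7 and 24.7 in ada2b and 54.1, 32.6 and 58 in spcing1, against 110, 93 and 94.8 in Col-0.

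Tissue markers moved beside XTH13 and XTH14. All 6 of 6 root hair markers rose in gcn5 and in ada2b, and 3 of 6 rose in eaf6. In the other PAGA-subunit mutants none rose, and 4 of 6 fell in ada2a, 1 in spc, none in ing1, 4 in sdrl, 2 in ada2aspc and 5 in spcing1 (limma, as for all genes). Their sum was 7036 to 9584 in gcn5, 7881 to 10534 in ada2b and 4441 to 5826 in eaf6, against 3063 to 4691 in Col-0. Markers of the root endodermis summed to 2636 to 3084 in gcn5 and 3266 to 4331 in ada2b, against 2005 to 3161 in Col-0. Of these, 2 of 5 rose in gcn5 and 3 of 5 in ada2b, while 1 of 5 fell in ada2a, 1 in eaf6 and 2 in spcing1. Over all genes, 18.2% rose in gcn5, 23.5% in ada2b and 25.2% in eaf6, and 14.5% (ada2a) to 28.1% (ada2b) fell. A fall of 1 marker in a list of 5 or 6 was thus near the share of all genes. The 6 green tissue markers summed to 325947 to 340893 in gcn5, 200836 to 257585 in ada2b and 562789 to 648075 in eaf6, against 867482 to 941808 in Col-0, with 6, 5 and 5 of 6 falling. In the other PAGA-subunit mutants the green sum ranged from 621714 in spcing1 to 773011 in ada2a, also below Col-0. The part of tissue make-up in the XTH differences was not tested.

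**Figure D4:**
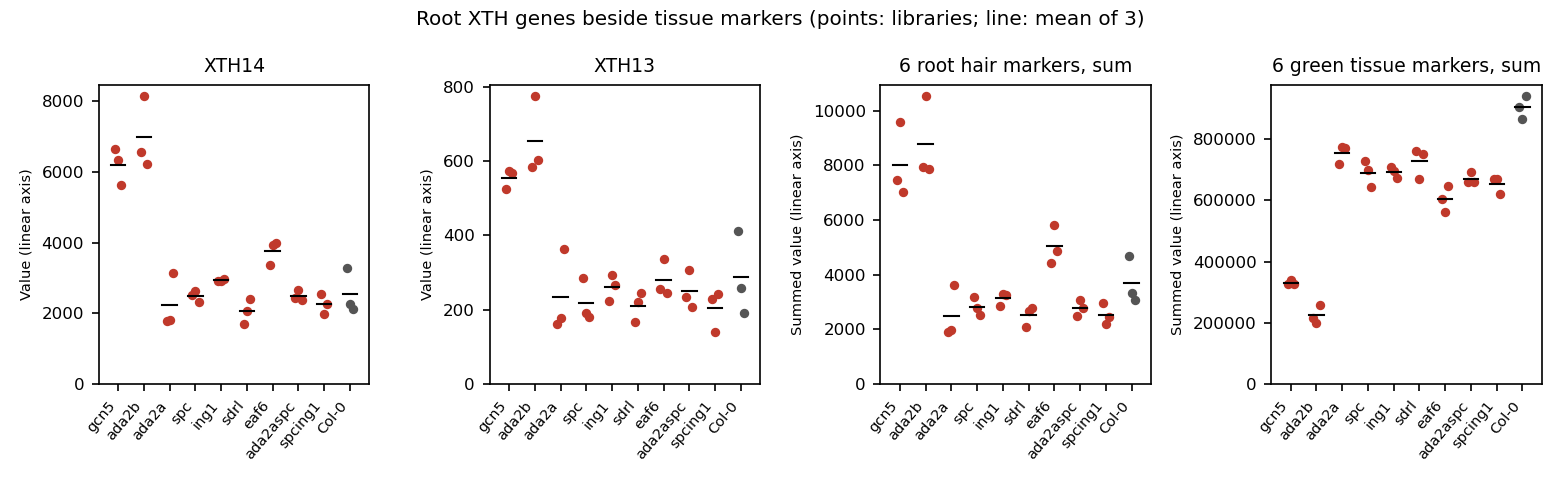
Values of XTH14 and XTH13 and summed values of 6 root hair and 6 green tissue markers in each library (points; red mutants, grey Col-0), with the mean of 3 libraries (lines), on linear axes from 0. XTH14, XTH13 and the root hair sum are highest in gcn5 and ada2b, where the green tissue sum is lowest.

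XTH15 and XTH33 differed among the PAGA-subunit mutants. XTH15 is known to be induced by shade, and XTH33 encodes a member with a predicted membrane anchor. XTH15 (AT4G14130, chr4:8137020-8138392, minus strand) had 309, 254 and 248 in gcn5 and 316, 268 and 263 in ada2b. It had 422, 373 and 661 in ada2a, 872, 562 and 553 in spc, 1124, 1102 and 1025 in ing1, 2626, 2595 and 2583 in sdrl, 1499, 1394 and 1333 in eaf6, 2497, 2488 and 2467 in ada2aspc and 2138, 2897 and 2858 in spcing1, against 268, 312 and 237 in Col-0. The PAGA single mutants thus ranked ada2a, spc, ing1, eaf6 and sdrl from low to high, ada2a and spc overlapped, and sdrl reached the level of the double mutants. The rise over Col-0 was 0.79 ± 0.16 (SE, adjusted p = 0.000303) in ada2a and 3.26 ± 0.16 (SE, adjusted p = 5.57e-16) in sdrl by limma. In gcn5 (-0.01 ± 0.16, SE) and ada2b (0.06 ± 0.16, SE) the libraries overlapped Col-0 and the test was not passed.

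XTH33 (AT1G10550, chr1:3479066-3481041, minus strand) had 70.9, 65 and 75 in gcn5 and 48, 49.9 and 24.5 in ada2b. It had 94, 138 and 160 in ada2a, 144, 146 and 166 in spc, 203, 242 and 224 in ing1, 479, 491 and 500 in sdrl, 253, 318 and 263 in eaf6, 341, 779 and 311 in ada2aspc and 458, 651 and 694 in spcing1, against 82, 60.1 and 42.4 in Col-0. It had the same order as XTH15 over the single mutants of PAGA subunits, and ada2a and spc again overlapped.

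The 3 comparisons of sdrl with other single mutants were added after the values had been seen. Against ada2a, 10 XTH genes were higher and 2 lower in sdrl (all genes 3.05% and 3.48%). Against spc, 7 were higher and 2 lower (all genes 4.71% and 6.64%). Against ing1, 6 were higher and none lower by limma (all genes 0.768% and 0.622%), and 9 were higher and 3 lower at an unadjusted p below 0.05. Only 3 or 4 passed once any of the 6 libraries was left out. XTH15 was higher in sdrl than in ada2a by 2.46 ± 0.16 (SE, adjusted p = 1.96e-11), than in spc by 2.01 ± 0.16 (SE, adjusted p = 1.02e-09) and than in ing1 by 1.26 ± 0.16 (SE, adjusted p = 4.67e-05) on the log2 scale by limma. XTH33 was higher in sdrl than in ada2a by 1.93 and than in ing1 by 1.13. Against ing1, XTH4, XTH23 and XTH33 each lost the call whichever of the 6 libraries was left out (limma adjusted p of 0.0625 to 0.116 for XTH4, 0.0661 to 0.208 for XTH23 and 0.0852 to 0.117 for XTH33). XTH4, XTH9 and XTH16 were also higher in sdrl than in each of the 3, by 0.37 to 0.72 for XTH4, 0.65 to 0.96 for XTH9 and 0.88 to 1.16 for XTH16. TCH4 did not pass in any of these 3 comparisons, although all its sdrl libraries were above every library of ada2a, spc and ing1. Its mean was 25276 signal per kilobase in sdrl, 17399 in ada2a, 19850 in spc and 15184 in ing1. The missed calls do not show equal levels. The 2 genes lower in sdrl were XTH31 and XTH32, against both ada2a (-0.54 and -0.39) and spc (-0.53 and -0.42). All 4 of these calls were lost without library 1 of sdrl (limma adjusted p = 0.125 and 0.181 against ada2a, and 0.0965 and 0.0955 against spc). Against ada2a, XTH31 was also lost without library 2 or 3 of ada2a, and XTH32 without library 1 or 2 of ada2a or 3 of sdrl and in the compared groups alone (adjusted p = 0.114). Against spc, XTH31 was also lost without library 1 of spc and XTH32 without library 2 of spc.

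The double mutants ask whether loss of a further subunit moves the family further. In ada2aspc, 13 XTH genes were higher and 1 lower than in ada2a (all genes 6.77% and 7.93%), and 7 were higher and 1 lower than in spc (all genes 4.89% and 7.02%). Without library 2 of ada2aspc, 8 genes in place of 14 passed against ada2a and 7 in place of 8 against spc. In spcing1, 9 were higher and 2 lower than in spc (all genes 3.61% and 3.45%), and 8 were higher and none lower than in ing1 by limma (all genes 1.78% and 1.04%). At an unadjusted p below 0.05 against ing1, 13 XTH genes were higher and 5 lower in spcing1. Without library 2 of spcing1, 7 passed against spc.

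XTH15, XTH33, XTH4 and XTH27 were higher in each double mutant than in both of its single mutants. XTH15 was higher in ada2aspc than in ada2a by 2.40 ± 0.16 (SE, adjusted p = 3.13e-11) and than in spc by 1.94 ± 0.16 (SE, adjusted p = 1.36e-09), and higher in spcing1 than in spc by 2.01 ± 0.16 (SE, adjusted p = 1.15e-09) and than in ing1 by 1.27 ± 0.16 (SE, adjusted p = 5.58e-05) on the log2 scale by limma. Its ada2aspc libraries lay within a narrow band (2467 to 2497), so library 2 did not carry this difference. XTH33 was higher in ada2aspc than in ada2a by 1.76 and than in spc by 1.52, or 1.34 and 1.1 without library 2 of ada2aspc. XTH4 gained 0.62 over ada2a and 0.58 over spc in ada2aspc, and 0.75 over spc and 0.44 over ing1 in spcing1. XTH27 gained 0.61 over ada2a and 0.37 over spc in ada2aspc, and 0.57 over spc and 0.46 over ing1 in spcing1. Without library 2 of ada2aspc, XTH27 gained 0.51 over ada2a and 0.27 over spc there (limma adjusted p = 0.00024 and 0.0495). XTH4 then gained 0.57 and 0.53. XTH9 also passed in all 4 comparisons, but its excess in ada2aspc over spc (0.31) was 0.17 without library 2 of ada2aspc (adjusted p = 0.296 by limma). That excess did not pass without library 1 or 2 of spc either, nor did its excess over ada2a without library 2 of ada2aspc (limma adjusted p = 0.0537).

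TCH4 and XTH23 did not follow in ada2aspc, where neither passed as higher than in ada2a or spc. TCH4 was lower in ada2aspc than in spc by limma (-0.97 ± 0.26 (SE, adjusted p = 0.0114)) and than in ada2a (-0.77 ± 0.26 (SE, adjusted p = 0.0424)). Without library 2, its high library, the differences were -1.38 and -1.18 and passed; without library 3 they were -0.64 and -0.43 and did not (adjusted p = 0.133 and 0.31 by limma). Neither passed without library 1 of ada2aspc (limma adjusted p = 0.0547 and 0.129) or in the compared groups alone (0.0551 and 0.0842), and the difference from ada2a also failed without library 2 or 3 of ada2a (0.105 and 0.132) and without the filter (0.0712). In spcing1 all 3 TCH4 libraries were above those of spc and ing1, yet the differences did not pass (0.47 ± 0.26 and 0.86 ± 0.26, SE). Of all genes, 7.06% passed in spcing1 against spc and 2.82% against ing1, but 14.7% in ada2aspc against ada2a. The adjustment was therefore stricter for spcing1. The missed calls thus do not show that TCH4 in spcing1 equalled its level in spc or ing1. XTH23 in ada2aspc overlapped ada2a and spc, and in spcing1 it was higher than in ing1 (1.27 ± 0.19 (SE, adjusted p = 0.000287)) by limma. All 3 XTH23 libraries of spcing1 were above those of spc and ing1.

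**Figure D5:**
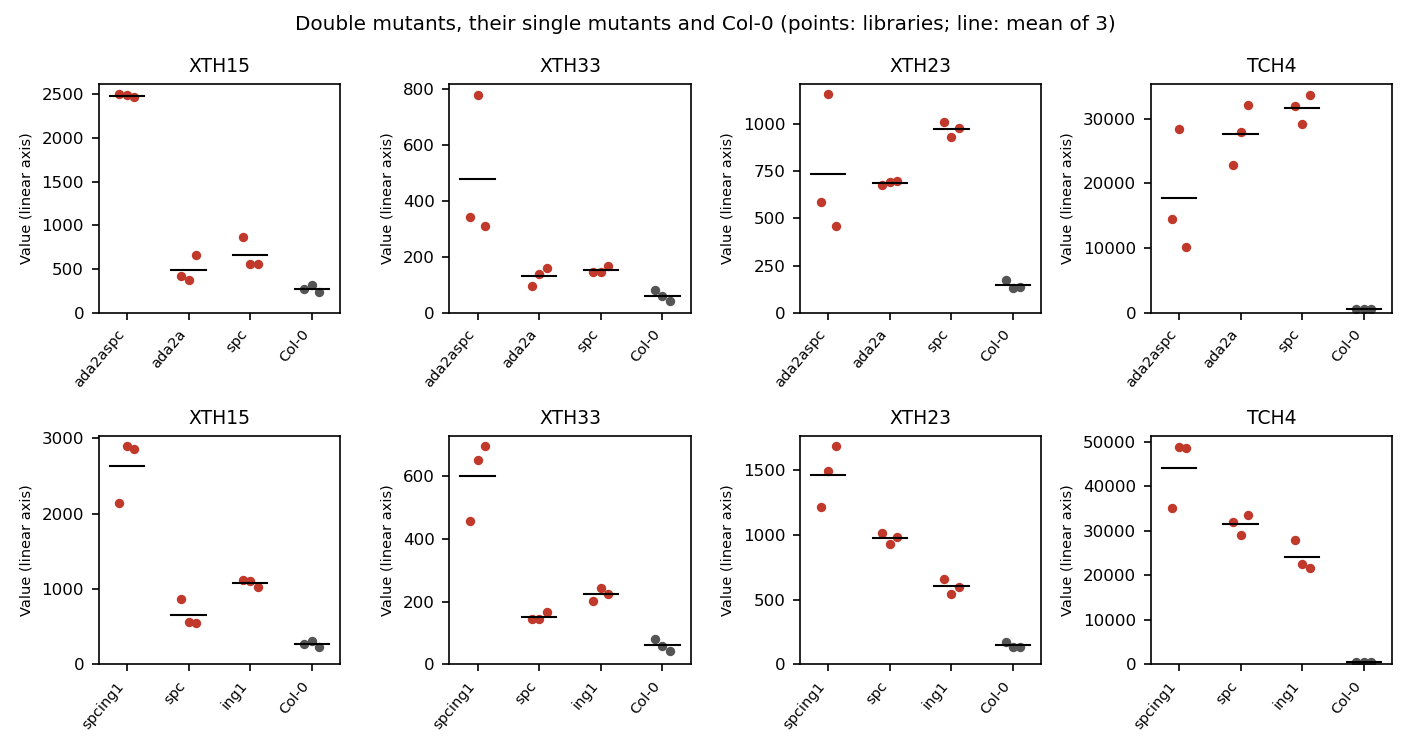
Values of XTH15, XTH33, XTH23 and TCH4 in each library (points) with the mean of 3 libraries (lines), on linear axes from 0, for ada2aspc, ada2a, spc and Col-0 (top) and spcing1, spc, ing1 and Col-0 (bottom). XTH15 and XTH33 are highest in the double mutants, while in ada2aspc 2 of 3 TCH4 libraries lie below all libraries of ada2a and spc.

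On the log2 scale, the difference of the double mutant from Col-0 was set against the sum of the differences of its single mutants. The difference passed for 11 of 30 XTH genes in ada2aspc, 2 above and 9 below the sum (all genes 7.76% and 10.8%). It passed for 9 in spcing1, 1 above and 8 below (all genes 7.95% and 10.7%). TCH4 was -6.50 ± 0.36 (SE, adjusted p = 1.98e-14) from the sum in ada2aspc and -4.87 ± 0.36 (SE, adjusted p = 3.59e-11) in spcing1 by limma. XTH15 in ada2aspc exceeded the sum by 1.14 ± 0.23 (SE, adjusted p = 0.000393) by limma, while in spcing1 it differed by 0.01 ± 0.23 (SE) and did not pass. XTH33 did not pass in either (0.43 ± 0.39 and 0.07 ± 0.39, SE).

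The direct comparison of ada2a with ada2b and gcn5 uses no Col-0 library. Against ada2b, ada2a had 17 members higher and 7 lower (all genes 33.5% and 30.2%), and against gcn5 it had 14 higher and 5 lower (all genes 28.6% and 23.4%). TCH4 (6.11), XTH25 (4.54), XTH16 (3.02) and XTH6 (2.86) had the largest log2 differences of ada2a over gcn5. XTH14 (-1.51), XTH13 (-1.34), XTH12 (-0.92), XTH20 (-0.90) and XTH26 (-0.81) were the 5 that were lower in ada2a than in gcn5. XTH31 (0.07 ± 0.14, SE) did not pass between ada2a and gcn5.

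Against gcn5, ada2b had 4 XTH genes higher and 14 lower (all genes 19.6% and 22.6%). TCH4 (1.30 ± 0.26 (SE, adjusted p = 0.000166)), XTH24, XTH5 and XTH30 were higher in ada2b by limma. Among those lower in ada2b were XTH21 (-1.81), XTH25 (-1.62), XTH8 (-1.15), XTH32 (-0.88), XTH17 (-0.87), XTH16 (-0.65) and XTH6 (-0.58). Each of these 7 had fallen in both mutants against Col-0, but not all 14 had. XTH33 was also lower in ada2b than in gcn5 (-0.83) and passed as lower than Col-0 in neither. Its call was lost in the compared groups alone (limma adjusted p = 0.0805) and without library 3 of ada2b (0.153). The difference of XTH25, whose libraries overlapped between the mutants, was -0.33 with a pseudocount of 16 (limma adjusted p = 0.375) and did not pass in the compared groups alone (0.0957). That of XTH6 also overlapped, and did not pass in the compared groups alone (limma adjusted p = 0.237) or without library 1 or 2 of ada2b (0.157 and 0.117) or library 1 of gcn5 (0.0782).

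The genes that make and trim xyloglucan, 19 in all, were counted in the same fit. In the PAGA-subunit mutants 5 or 6 of the 19 rose and 2 to 4 fell, where 15.1% (ada2a) to 25.2% (eaf6) of all genes rose and 14.5% (ada2a) to 25.9% (eaf6) fell. In gcn5 and ada2b 2 and 3 rose and 9 fell in each, where 18.2% and 23.5% of all genes rose and 24.5% and 28.1% fell. The median log2 difference of the 19 lay between -0.05 (eaf6) and 0.06 (sdrl) in the PAGA-subunit mutants and at -0.20 and -0.21 in gcn5 and ada2b. XXT1, a xylosyltransferase that adds the side chains, rose by 1.83 (eaf6) to 2.42 (spcing1) in the PAGA-subunit mutants and fell in gcn5 (-0.85 ± 0.15 (SE, adjusted p = 3.28e-05)) by limma. CSLC4, a synthase of the glucan backbone, rose by 1.13 (ada2aspc) to 1.65 (spcing1) in them and fell in gcn5 (-0.38) and ada2b (-0.65). AXY8, a fucosidase that trims xyloglucan, rose by 0.59 (eaf6) to 1.15 (spcing1) in them and fell in gcn5 (-0.60) and ada2b (-0.48). AXY4, which acetylates side chains, fell in gcn5 (-0.91) and ada2b (-1.39).

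The remaining members changed little or were low. XTH5 lay between 180 and 547 over all libraries, rose in ada2b (0.49) and fell in spc (-0.47), eaf6 (-0.48), ada2aspc (-0.44) and spcing1 (-0.73) on the log2 scale. The fall in ada2aspc did not pass without library 2 of that mutant. XTH11 lay between 26.4 and 119 and passed as higher in sdrl (0.90 ± 0.32, SE). XTH29, at 59.3 or less in every library, passed as lower in ada2b (-1.61 ± 0.63, SE).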

How the data were processed

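Messenger RNA of 12-day-old seedlings was sequenced in 30 libraries, 3 for each of 10 genotypes, as paired reads of 150 bases per the labels' protocols. Per the submitters' processing notes, bcl2fastq, HISAT2, edgeR and the TAIR10 build were used; versions, the read counter and the normalization are not given in the sources used here. Per gene, the authors deposited a normalised signal, which is not whole numbers, so no count test was used. The depth in reads is unknown, and no count interval is given.

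From these values, limma 3.58.1 in R 4.3.3 was fitted on log2(value + 1) over all 30 libraries, with each genotype as a level (20 residual degrees of freedom, variances with a trend). Genes that reached 10 in 3 or more libraries entered, with Benjamini-Hochberg adjustment at 0.05. On simulated data for gcn5 against Col-0 (21868 genes), 67, 67 and 66 genes were changed by 0.5, 1 and 2 on the log2 scale. The fit recovered 37.3%, 64.2% and 86.4% of them and called 8 unchanged genes. In the real comparison 42.7% of genes passed, which sets a different adjustment. These rates therefore do not measure its sensitivity.

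Described members passed in at least 1 mutant against Col-0 with at least a 2-fold change and a mean of at least 100 in the higher group; 20 did, and the others are given by ranges, with XTH21 added after its values were seen. The members and lists were chosen with earlier results of these data known. Gene models and sequences came from RefSeq (TAIR10.1), read with Python 3.11.15; the promoter window is 300 bases. Alternatives were size factors, column totals, a pseudocount of 16, no filter, the compared groups alone, a 2-fold minimum, a replicate block, each library left out in turn and, added after seeing the data, the mean of the other 8 mutants as the comparison level. No pair of columns was identical, and r within a genotype was 0.9794 to 0.984.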

Additional observations from a re-analysis of the deposited data

Results flagged for a closer look

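For the XTH genes below, the effect of a subunit's loss differed with the presence of the other subunit: the log2 difference of the double mutant from Col-0 differed from the sum of those of its single mutants (limma interaction contrast, 20 such results over 30 genes and both double mutants). All of these contrasts use the same 3 Col-0 libraries, and both use spc.

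In ada2aspc, values below the sum were found for TCH4 at -6.50, XTH23 at -2.76, XTH18 at -1.36, XTH9 at -1.03 and XTH27 at -0.82. Smaller shortfalls were found for XTH16 at -0.57, XTH4 at -0.44, XTH30 at -0.43 and XTH28 at -0.34. XTH15 at 1.14 rose beyond the sum, and XTH32 at 0.57 fell by less than the sum. With 1 library left out in turn, XTH16 and XTH30 each lost the call in 6 of 12 refits (limma adjusted p up to 0.116 and 0.113), XTH4 without library 3 of Col-0 (0.0519) and XTH32 without library 3 of ada2aspc (0.05). XTH30 also lost it after division by column totals (limma adjusted p = 0.0738).

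In spcing1, values below the sum were found for TCH4 at -4.87, XTH23 at -1.46, XTH18 at -1.09, XTH27 at -0.97, XTH19 at -0.92, XTH9 at -0.88, XTH4 at -0.61 and XTH30 at -0.52. XTH32 at 0.49 fell by less than the sum, and lost the call in 7 of 12 refits without a library (limma adjusted p of 0.0569 to 0.089). XTH15 passed in ada2aspc and not in spcing1, and the difference between the double mutants was not tested.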

How the results depend on the processing

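Of 289 pairs of a described XTH gene and a comparison that passed, all kept call and direction with size factors, 288 with a pseudocount of 16, 280 without the filter, 275 in the compared groups alone and 275 after division by column totals; 41 lost the call in at least 1 refit without a library. The size factors lay between 0.9969 and 1.0297, so that setting hardly changed the values and could hardly change a call. After division by column totals, the all-gene median over Col-0 was 0.17 in gcn5, 0.27 in ada2b and between -0.15 (spcing1) and 0.05 (eaf6) elsewhere. This scaling raised the family total over Col-0 to 1.30 in gcn5 and 1.42 in ada2b, and reversed XTH18 in ada2a against ada2b to -0.01 (adjusted p = 0.967 by limma).

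A 2-fold minimum left 8 XTH genes in gcn5, 13 in ada2b, 8 in ada2a, 10 in spc, 11 in ing1, 13 in sdrl, 13 in eaf6, 14 in ada2aspc and 15 in spcing1 against Col-0. Of all genes, 3.1% (ada2b) to 9.08% (eaf6) were higher and 1.44% (ada2a) to 12.9% (ada2b) lower by that rule. It left 4 in ada2aspc against ada2a, 2 against spc, 3 in spcing1 against spc, 4 against ing1, 5 in ada2b against gcn5, 15 in ada2a against ada2b, 9 in ada2a against gcn5, 3 in sdrl against ada2a, 3 against spc and 2 against ing1, and 5 and 3 non-additive values in ada2aspc and spcing1. By the same rule, 2.28% of all genes were higher and 7.28% lower in ada2b against gcn5, 16.6% and 5.67% in ada2a against ada2b, 2213 and 992 of 21868 genes in ada2a against gcn5, 1.6% and 4.46% above and below the sum in ada2aspc and 1.4% and 4.04% in spcing1; in the other comparisons at most 0.448% were higher and 1.04% lower. With the compared groups alone, 13 genes in place of 8 passed in spcing1 against ing1. The share of all genes that passed in that setting was not counted. Against the mean of the other 8 mutants, 11 passed in ada2a, 10 in spc and 8 in ing1 (all genes 20.7%, 27.9% and 13.4%). The cause of these shifts was not tested.

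Leaving out 1 library gave 17 to 19 genes in gcn5, 21 to 24 in ada2b, 15 to 19 in ada2a, 17 to 21 in spc, 18 to 21 in ing1, 19 to 20 in sdrl, 21 to 23 in eaf6, 18 to 21 in ada2aspc and 20 to 22 in spcing1 against Col-0. It gave 8 to 14 in ada2aspc against ada2a, 7 to 9 against spc, 7 to 12 in spcing1 against spc, 7 to 9 against ing1, 16 to 17 in ada2b against gcn5, 22 to 24 in ada2a against ada2b, 18 to 20 in ada2a against gcn5, 9 to 12 in sdrl against ada2a, 7 to 9 against spc and 3 to 4 against ing1. Non-additive values numbered 8 to 11 in ada2aspc and 8 to 10 in spcing1.

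The replicate numbers do not pair the libraries: correlations of same-numbered deviations lay between -0.085 and 0.087, and in 0 of 19 comparisons were all 3 above 0.1. With the replicate number as a block, 19 genes passed in gcn5 and 23 in ada2b, and 2 of the 289 calls were lost (XTH30 in spcing1 against spc, adjusted p = 0.0523, and XTH23 in sdrl against ing1, adjusted p = 0.055, both by limma).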
